A study of Mus musculus with 12 samples.

Results

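The structural RNAs described here are the small nucleolar RNAs (snoRNAs), the small Cajal body RNAs (scaRNAs), the 45S ribosomal RNA precursor Rn45s, and the RNA subunits of RNase P (Rpph1) and RNase MRP (Rmrp). All rows whose symbols begin with Snor or Scarna were taken, with those last 3 genes, which gave 117 of the 23366 genes in the tables. They comprised 69 box C/D snoRNAs, 36 box H/ACA snoRNAs and 9 scaRNAs beside Rn45s, Rpph1 and Rmrp. The filter for testing, 2 libraries of an experiment at 10 or above, was passed by 95 of them in the DAPT experiment, 86 in the apicidin experiment and 87 in the Hdac3 knockdown experiment. Of the 117, 85 passed in every experiment, 21 passed in none, and 13 of those 21 had no read in any library.

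RNA was sequenced from Beko cells, a mouse pre-T cell line, after ribosomal RNA depletion, in 12 libraries that formed 6 groups of 2. Cells were given 10 µg/ml DAPT, a γ-secretase inhibitor that blocks Notch receptor cleavage, for 24 h, or DMSO. Other cells were given apicidin, which inhibits histone deacetylases, at 0.01 µg/ml and for the same 24 h, with a DMSO control set of their own. In the third experiment cells were infected with a plasmid for a short hairpin RNA against Hdac3 (shHdac3; the labels name 1 hairpin) or for a scrambled hairpin, and were collected 96 h after puromycin was added. All groups were this one line, grown in the same medium, and no comparison shared control libraries with another. DAPT was used to find Notch target genes, and the loss of HDAC3 activity to study its role at them.

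Libraries held 21766984 to 42815304 reads in genes, and the 4 of the DAPT experiment were the deepest. All 11 T lineage markers looked up had values of 10 or more in all 12 libraries, the summed B cell markers reached at most 12.3 normalised reads, and the erythroid markers were at 0. Hdac3 itself had 774 and 819 normalised reads in the knockdown libraries and 2012 and 1930 in the scrambled ones, a log2 fold change of -1.31 ± 0.05 (SE; limma, adjusted p = 7.6e-25). Levels below are normalised reads, that is, reads divided by 1 size factor per library. The 3 experiments were scaled separately, so levels are compared within an experiment only. The labels do not say that the 2 libraries of a group are separate cultures; the p-values thus rest on a spread among libraries that may be technical.

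Box C/D snoRNAs guide the methylation of ribose in ribosomal and spliceosomal RNA, and a few of them act in cutting the ribosomal precursor. Box H/ACA snoRNAs guide the conversion of uridine to pseudouridine. The scaRNAs do the same work on spliceosomal RNAs in Cajal bodies. In mammals most snoRNAs are cut from the introns of host genes, many of which encode ribosomal proteins or have no protein product, and each is protected from exonucleases by the proteins bound to its boxes. RNase P trims the leader of tRNA precursors, and RNase MRP cuts the ribosomal precursor in its internal spacer. Both RNA subunits are made by RNA polymerase III, while the 45S precursor is made by RNA polymerase I.

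The sequences below are transcripts of the mouse GENCODE annotation (GRCm38), 5′ to 3′, for 6 box C/D and 3 box H/ACA snoRNAs on which the results turn. Capitals mark TGATGA (box C) within the first 20 bases and CTGA (box D) within the last 20 bases of box C/D snoRNAs, and ACA within the last 8 bases of box H/ACA snoRNAs. The first 4 are the most abundant box C/D snoRNAs that the limma fit called higher with DAPT and lower in the other experiments, and Snord8 had the largest rise among those called in all 3; Snord49b and Snora44 had the largest falls of their class with shHdac3, and Snora7a and Snora52 are box H/ACA snoRNAs that passed the limma test in all 3 experiments.
Snord15b: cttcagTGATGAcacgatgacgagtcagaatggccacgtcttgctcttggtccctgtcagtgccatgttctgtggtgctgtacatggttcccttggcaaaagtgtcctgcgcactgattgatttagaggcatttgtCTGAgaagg
Snord15a: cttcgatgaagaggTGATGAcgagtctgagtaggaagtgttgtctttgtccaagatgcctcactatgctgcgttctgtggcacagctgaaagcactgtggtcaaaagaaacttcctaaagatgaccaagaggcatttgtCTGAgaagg
Snord22: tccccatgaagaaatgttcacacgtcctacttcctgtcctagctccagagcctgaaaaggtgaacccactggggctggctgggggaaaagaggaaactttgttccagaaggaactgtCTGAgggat
Snord17: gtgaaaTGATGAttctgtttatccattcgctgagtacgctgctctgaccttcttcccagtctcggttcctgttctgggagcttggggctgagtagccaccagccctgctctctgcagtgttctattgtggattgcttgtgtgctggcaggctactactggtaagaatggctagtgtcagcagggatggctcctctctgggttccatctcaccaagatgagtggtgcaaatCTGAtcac
Snord8: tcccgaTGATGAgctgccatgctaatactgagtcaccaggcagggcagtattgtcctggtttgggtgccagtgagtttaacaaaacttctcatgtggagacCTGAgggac
Snord49b: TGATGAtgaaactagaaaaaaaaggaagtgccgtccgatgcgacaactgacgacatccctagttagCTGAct
Snora7a: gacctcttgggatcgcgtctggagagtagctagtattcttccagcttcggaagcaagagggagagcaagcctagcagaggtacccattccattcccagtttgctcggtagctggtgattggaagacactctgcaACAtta
Snora52: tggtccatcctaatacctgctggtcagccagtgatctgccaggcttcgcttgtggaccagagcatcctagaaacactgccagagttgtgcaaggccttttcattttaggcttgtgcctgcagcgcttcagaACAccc
Snora44: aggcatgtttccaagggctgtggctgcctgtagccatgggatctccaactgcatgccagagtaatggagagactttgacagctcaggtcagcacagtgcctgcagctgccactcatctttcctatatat

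In the printed RNAs, the searched box C letters were absent from Snord22 and the ACA from the end window of Snora44, which says only that these exact letters were not in these windows. The search read the RNA strand only, and its motifs do not overlap one another. TGATGA was found in the first 20 bases of 43 of 68 box C/D snoRNAs with a sequence (63.2%) and of 0 of 36 box H/ACA snoRNAs. CTGA was found in the last 20 bases of 66 of 68 (97.1%) and of 4 of 36 (11.1%), and ACA in the last 8 bases of 6 of 68 (8.82%) and of 34 of 36 (94.4%). The symbols thus sorted the RNAs much as boxes D and ACA did.

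These RNAs took between 2.56% and 4.69% of the reads in genes of a library, most of it from 3 genes. Rn45s alone took 1.39% to 3.19%, Rpph1 0.502% to 0.765% and Rmrp 0.286% to 0.537%. The 69 box C/D snoRNAs together took 0.0592% to 0.131%, the 36 box H/ACA snoRNAs 0.0214% to 0.0476%, and the 9 scaRNAs 0.0196% to 0.0294%. The box C/D share was 0.0936% and 0.0924% with DAPT and 0.0754% and 0.0728% in its DMSO controls, so that the groups did not overlap. It was 0.0885% and 0.0725% with apicidin and 0.131% and 0.0865% in its controls, which overlapped, and the knockdown share of 0.0664% and 0.0592% did not overlap that of the scrambled hairpin, 0.123% and 0.0966%. With 2 libraries a group no exact permutation test of a single value can reach 0.05, and these shares are given without a test. A summed share weighs the abundant RNAs most. With DAPT 8 of 54 box C/D snoRNAs tested were called higher (limma), where 20.1% of all genes were, and their median log2 fold change was 0.05. Single genes often showed such gaps: 34.5% of all genes had both DAPT libraries above both controls, and 33.6% had both knockdown libraries below. The cells were sequenced in bulk, and fewer cells of a type and less RNA per cell cannot be told apart.

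**Figure D1:**
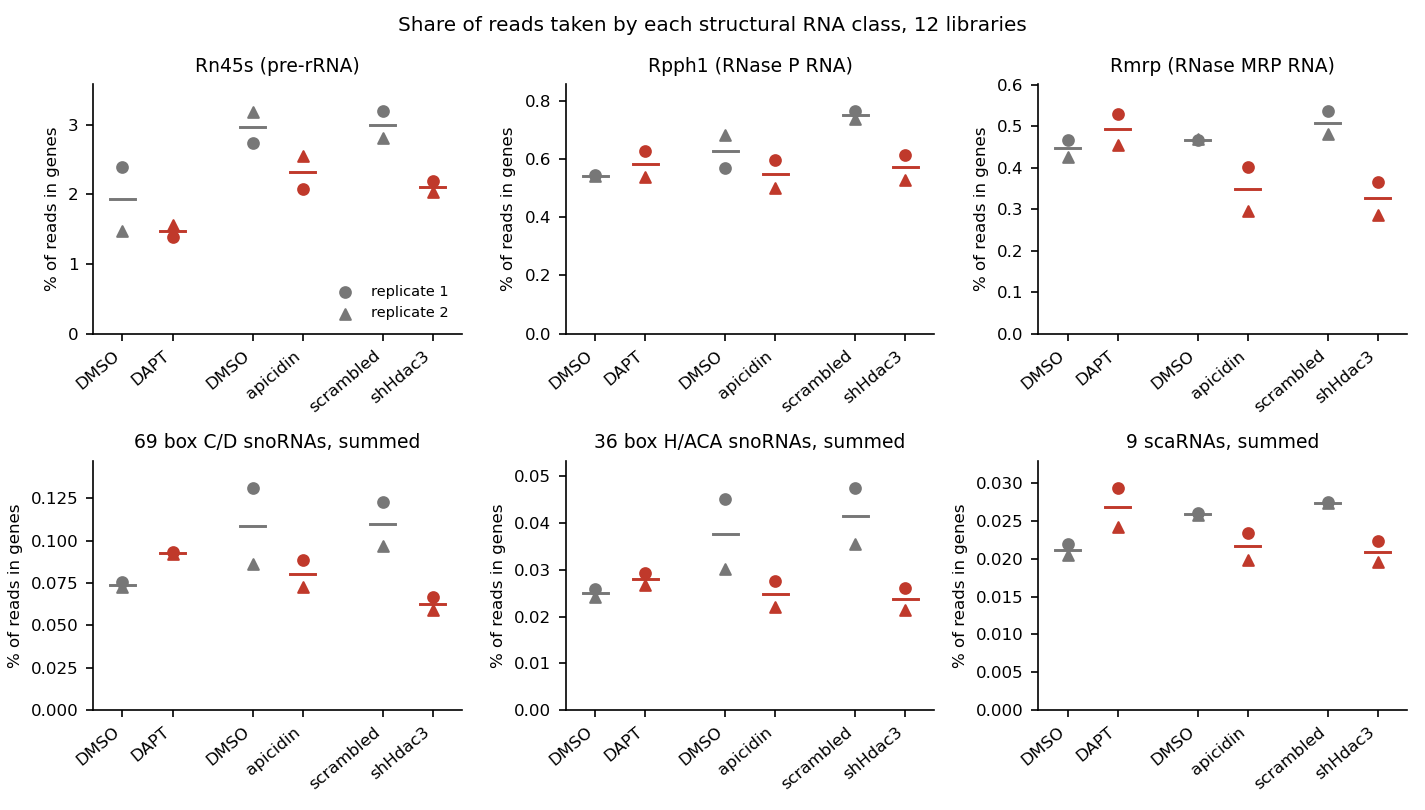
Percent of the reads in genes taken by each class (vertical axes, from 0) in the 12 libraries, grouped by experiment on the horizontal axis; circles are replicate 1, triangles replicate 2, grey controls, red treated, and lines the mean of the 2 libraries. The summed box C/D share lay above its controls with DAPT (0.0936% and 0.0924% against 0.0754% and 0.0728%) and below them with shHdac3 (0.0664% and 0.0592% against 0.123% and 0.0966%). The sum weighs the abundant RNAs most, and 8 of 54 box C/D snoRNAs tested were called higher with DAPT (20.1% of all genes).

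Per length, the order of abundance in the 6 control libraries was led by the 2 RNase subunits. Lengths were those of GENCODE transcripts. Rn45s, which took the most reads, and Snord116 had no such length and are left out of this order. RefSeq lengths differ for some RNAs, at 71 against 325 bases for Scarna10 and 61 against 414 for Scarna2. The order below the RNase subunits thus depends on the lengths used. Rpph1 had 2007 ± 316 RPM (reads scaled by the reads in genes of the library) per 100 bases (SD, n = 6 control libraries) and Rmrp 1751 ± 132, and their ranges of 1698 to 2398 and 1573 to 1980 overlapped. Snord15b followed at 243 ± 50.2, Snord15a at 115 ± 21.2 and Snord22 at 90.6 ± 27.9. Snord15b lay above Snord15a in range (193 to 324 against 91.2 to 144), while Snord15a and Snord22 overlapped. Snora78, a box H/ACA snoRNA, had 50.1 ± 19.8 and Snord104 47.9 ± 27.3, and these 2 overlapped. Among 58 box C/D snoRNAs under 100 bases the median was 1.56, and 8 had no read in the controls. The median was 2.11 among the 7 of 100 bases or more but under 130. Among the 3 of 130 bases or more, Snord15a, Snord15b and Snord17, the lowest was 35.1. Level per 100 bases followed length only weakly, with a Spearman rho of 0.09 over 68 box C/D snoRNAs and 0.26 over 36 box H/ACA snoRNAs. Column purification and library preparation of this kind are made for longer RNA, and the recovery of short RNAs was not measured, so levels between RNAs of different length are those of the libraries, not of the cells.

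DAPT against DMSO asked which genes respond when Notch cleavage is blocked. Among 95 structural RNAs tested, 16 rose and 6 fell (limma on log2 of the value + 1, adjusted p under 0.05), where 20.1% of all 12840 genes tested were called higher and 23.1% lower. Their median log2 fold change was 0.10, against 0.00 for all genes. The rises were small and lay mainly in the abundant RNAs. Of the 20 with a mean of 500 or more, 11 were higher, where 22.8% of all genes at that level were. The authors' deposited table, whose adjusted p was given for 83 of these RNAs, called 7 higher (13.7% of all genes) and 0 lower (18.0% of all genes; 1 lower at an unadjusted p under 0.05).

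Among box C/D snoRNAs 8 of 54 were higher and 2 lower, both below the shares of all genes (20.1% higher and 23.1% lower). Snord15b, a guide for the large ribosomal RNA, had 14496 and 15104 normalised reads with DAPT and 11899 and 11279 with DMSO. Both treated libraries were above both controls, and the log2 fold change was 0.35 ± 0.04 (SE; limma, adjusted p = 9.4e-08). Its relative Snord15a had 7689 and 6681 against 5674 and 5452 (0.37 ± 0.05, limma adjusted p = 1.8e-06); both lie in Rps3 and share part of their sequence, so reads may have been divided between them in counting. Snord22 had 4996 and 4968 against 4043 and 3831, a log2 fold change of 0.34 ± 0.04 (limma, adjusted p = 3e-07).

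The rises of these 3 exceeded the gaps between their replicates. Snord8 had 387 and 318 against 230 and 199, and its log2 fold change of 0.71 ± 0.11 (limma, adjusted p = 1.4e-05) was, among the RNAs called, the largest after that of Snord67. Snord67 had the largest of these, 1.34 ± 0.43 (limma, adjusted p = 0.014), from only 16.0 and 24.1 normalised reads against 5.13 and 9.79. Both DMSO values were under 10, so Snord67 entered the test only through the DAPT libraries, where it was high. Snord17 rose by a log2 fold change of 0.20 ± 0.05, from 3365 and 3250 to 4086 and 3550 (limma, adjusted p = 0.0022). Snord47 and Snord16a rose by 0.34 and 0.26 on that scale, and the adjusted p of Snord16a in the authors' deposited table was 0.057.

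Of 31 box H/ACA snoRNAs 5 were higher and 3 lower, again below the shares of all genes (20.1% higher and 23.1% lower). Snora7a had 693 and 826 normalised reads with DAPT and 589 and 644 with DMSO, a log2 fold change of 0.30 ± 0.08 (limma, adjusted p = 0.0036). Snora81 rose the most of this class, from 111 and 120 to 164 and 166 (0.51 ± 0.13, limma adjusted p = 0.0034; 0.075 in the authors' deposited table). Without DAPT replicate 2 the value of Snora7a was 0.17 (limma, adjusted p = 0.15). Snora21, Snora52 and Snora68 rose by 0.37, 0.28 and 0.18 on the log2 scale. For Snora52 the authors' deposited table gave adjusted p-values of 0.33 with DAPT, 0.21 with apicidin and 0.20 with shHdac3, and the DAPT value was 0.08 without DAPT replicate 1 (limma, adjusted p = 0.55). The 3 that fell were Snora3, Snora64 and Snora65, with log2 fold changes of -0.46, -0.45 and -0.36. The 2 box C/D snoRNAs that fell were Snord52, from 61.6 and 50.9 to 36.3 and 27.8, and Snord43, from 89.3 and 92.0 to 69.5 and 50.9.

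Of the 7 scaRNAs tested 3 rose, where 20.1% of all genes did. Scarna10 had 7063 and 5376 against 4861 and 4625 normalised reads (log2 fold change 0.38 ± 0.07, limma adjusted p = 0.00015). In the authors' deposited table the adjusted p of Scarna10 was 0.12 with DAPT, 0.31 with apicidin and 0.24 with shHdac3. Scarna6 and Scarna2 rose by 0.24 and 0.21 on the log2 scale. Scarna13, Scarna17, Scarna9 and Scarna8 did not pass, with log2 fold changes of 0.13, 0.29, 0.18 and 0.79. That of Scarna8 rested on 9.62 and 17.6 reads against 10.3 and 4.90.

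For Rmrp, Rpph1 and Rn45s the DAPT and DMSO libraries overlapped. Rmrp had 210611 and 180634 against 191206 and 172197, and Rpph1 249350 and 213248 against 222383 and 218792; the log2 fold changes were 0.10 ± 0.06 and 0.06 ± 0.06 (limma, adjusted p = 0.19 and 0.42). Rmrp was called without DMSO replicate 1 (0.18, adjusted p = 0.0061) and without DAPT replicate 2 (0.21, adjusted p = 0.017). Rn45s had 552673 and 615182 with DAPT and 978007 and 596157 with DMSO. The log2 fold change of -0.39 ± 0.13 (limma, adjusted p = 0.016) rested on 1 control. Without DMSO replicate 1 it was -0.03 (adjusted p = 0.77), and in the authors' deposited table the adjusted p was 0.41.

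Without each of the 4 libraries in turn, 8 of the 16 rises were called every time: Snord15a, Snord15b, Snord16a, Snord22, Snord47, Snord8, Snora81 and Scarna10. Of the 6 falls, 0 were.

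**Figure D2:**
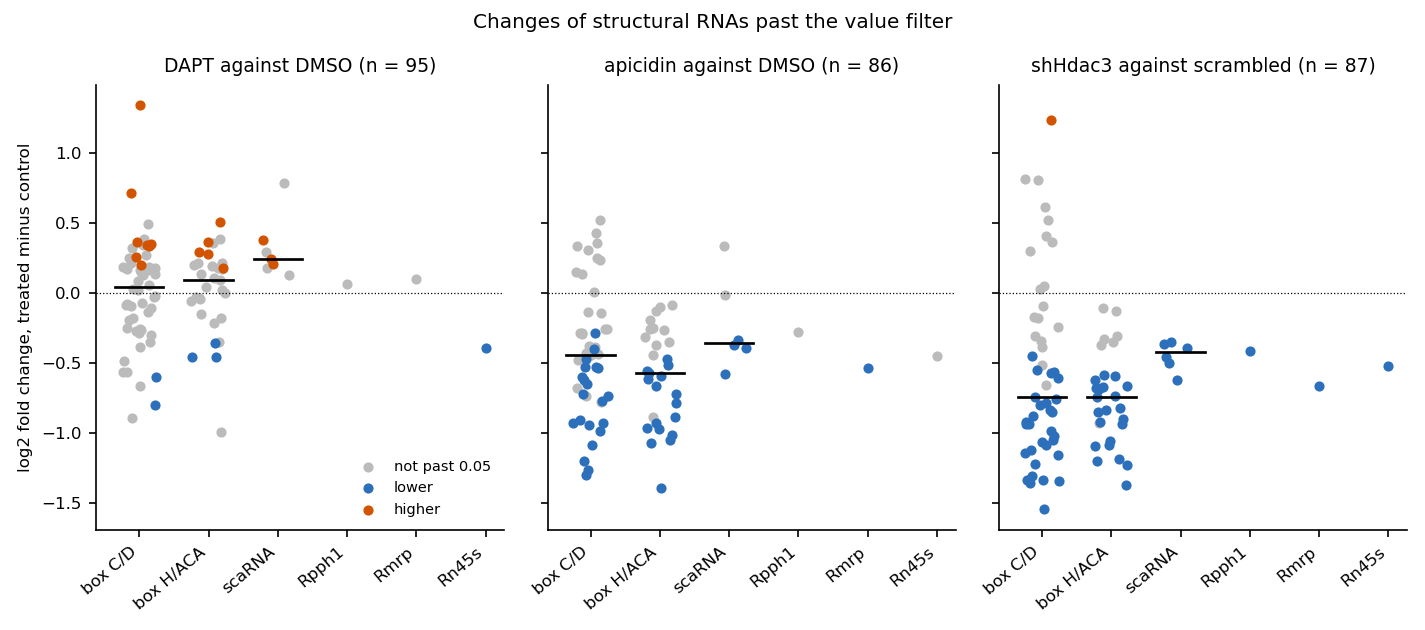
Log2 fold change, treated minus control (vertical axis), of each structural RNA past the value filter, by class on the horizontal axis, for the 3 comparisons; orange and blue points passed an adjusted p of 0.05, grey points did not, and black lines are class medians for classes with more than 1 member. With DAPT 16 points are orange and 6 blue, with apicidin 43 are blue, and with shHdac3 61 are blue and 1 is orange.

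Apicidin against DMSO asked what inhibition of histone deacetylases does. Of 86 structural RNAs tested, 43 were lower and 0 higher, where 19.9% of all 12463 genes tested were lower and 18.2% higher (limma, adjusted p under 0.05). At an unadjusted p under 0.05 (limma), 51 were lower and 1 higher, and the share of all genes at that threshold was not counted. On the recovered reads edgeR and DESeq2 also called 0 higher. The median log2 fold change was -0.46. In 51 of the 86, both treated libraries lay below both controls, where this held for 34.6% of all genes. The authors' deposited table called 12 lower and 0 higher, of 71 with an adjusted p, where it called 11.6% of all genes lower and 9.95% higher (0 were higher at an unadjusted p under 0.05).

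Falls were called in both guide classes: 21 of 48 box C/D and 17 of 29 box H/ACA snoRNAs were lower, where 19.9% of all genes were. The other 27 box C/D and 12 box H/ACA snoRNAs were not called. Both treated libraries lay below both controls in 23 of the 48 and 21 of the 29, where 34.6% of all genes did. Snord49b had 412 and 489 normalised reads with apicidin and 1637 and 746 with DMSO, a log2 fold change of -1.30 ± 0.20 (limma, adjusted p = 8.4e-05). Both treated libraries lay below both controls, yet the 2 controls differed by more than the treated libraries did from the lower one. Snord32a had 364 and 367 against 908 and 665 (-1.08 ± 0.10, limma adjusted p = 2.6e-07). Snord82 and Snord110 fell by 1.20 and 1.26 on the log2 scale.

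Snord15b had 7644 and 6786 against 11840 and 8371 (log2 fold change -0.47 ± 0.10, limma adjusted p = 0.0011). For Snord15a (4343 and 3545 against 5366 and 4275) and Snord22 (2356 and 1338 against 3197 and 2038) the treated and control libraries overlapped, although both passed the limma test at -0.29 and -0.52. In the authors' deposited table the adjusted p of Snord22 was 0.53 and that of Snord15b 0.18.

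Snora44 had treated libraries close to each other, with 294 and 305 normalised reads against 675 and 507 (log2 fold change -0.96 ± 0.10, limma adjusted p = 1.4e-06). Snora30 had the largest, -1.39 ± 0.26 (limma, adjusted p = 0.00038), from 115 and 70.3 to 42.7 and 26.4. Snora43 and Snora61 fell by 1.01 and 0.93 on that scale, and Snora62 by 1.07. Leaving out 1 library gave -1.34 to -0.52 for Snora61 and -1.59 to -0.55 for Snora62, and their adjusted p-values in the authors' deposited table were 0.058 and 0.14. Snora7a had 483 and 415 against 1074 and 634 (-0.88 ± 0.15, limma adjusted p = 0.00016).

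Of 6 scaRNAs 4 fell, by log2 fold changes of -0.34 (Scarna13), -0.37 (Scarna2), -0.39 (Scarna10) and -0.57 (Scarna6). Scarna2 had 1402 and 1458 against 1743 and 1958 normalised reads, with no overlap (limma, adjusted p = 4.4e-05). Scarna9, at 299.8 and 315 against 319 and 301, had a log2 fold change of -0.01, and Scarna17 one of 0.34 with overlapping groups.

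Rmrp had 95543 and 72088 with apicidin and 117449 and 122388 with DMSO, a log2 fold change of -0.53 ± 0.10 (limma, adjusted p = 0.00058; 0.052 in the authors' deposited table; -0.33 with an adjusted p of 0.057 without apicidin replicate 2). Rpph1 and Rn45s did not pass, although both treated libraries lay below both controls for each. Rpph1 had 141823 and 122723 against 143548 and 178399 (-0.28 ± 0.11, limma adjusted p = 0.052), and Rn45s 494540 and 623146 against 691131 and 828826 (-0.45 ± 0.18, limma adjusted p = 0.063). Without DMSO replicate 1 both were called, Rpph1 at -0.44 (adjusted p = 0.00037) and Rn45s at -0.58 (adjusted p = 0.017). Rpph1 was also called with no value filter (adjusted p = 0.026) and, at an adjusted p of 0.0499, with size factors taken without structural RNA and histone genes. Rn45s was also called with no filter (adjusted p = 0.016) and by edgeR (0.028). The authors' deposited table gave 0.31 for Rpph1 and 0.12 for Rn45s.

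The count of falls depended on that control, and the share of all genes called without it was not counted. In 72 of the 86 RNAs DMSO replicate 1 was above replicate 2, by a median log2 of 0.50, while 49.7% of all genes were higher in replicate 1. Without DMSO replicate 1, 29 RNAs were lower and 2 higher (Scarna17 at 0.64 and Snord43 at 0.61); without replicate 2, 54 were lower. Called without each library in turn were 20 of the 43, among them Snord15b, Snord32a, Snord49b, Snora44, Snora7a, Scarna2 and Scarna6.

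Hdac3 knockdown against the scrambled hairpin asked what loss of this enzyme does. Here 61 of 87 structural RNAs were lower and 1 higher, where 19.4% of all 12482 genes tested were lower and 22.5% higher (limma, adjusted p under 0.05). The median log2 fold change was -0.67, and in 72 of the 87 both knockdown libraries lay below both controls (33.6% of all genes). All 20 with a mean of 500 or more fell, where 18.1% of all genes at that level did. The authors' deposited table called 41 of 87 lower and 0 higher, where it called 10.2% of all genes lower and 13.7% higher (0 were higher at an unadjusted p under 0.05).

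Of 49 box C/D snoRNAs 30 fell, where 19.4% of all genes did. Snord49b had 383 and 263 normalised reads with shHdac3 and 1135 and 756 with the scrambled hairpin, the largest fall at a log2 fold change of -1.54 ± 0.11 (limma, adjusted p = 2.5e-16). Snord15b had 6038 and 5343 against 10648 and 9144 (-0.80 ± 0.05, limma adjusted p = 2e-17), and Snord22 1841 and 1758 against 4697 and 2846 (-1.02 ± 0.09, limma adjusted p = 1.3e-13). In these 3 the knockdown libraries lay below both controls.

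Snord16a, Snord89, Snord1c and Snord104 fell by 1.31, 1.35, 1.34 and 1.14 on the log2 scale. Snord8 had 252 and 113 against 534 and 342, a log2 fold change of -1.34 ± 0.17 (limma, adjusted p = 8.3e-09). Its 2 knockdown libraries differed from each other by more than a log2 of 1, and in the authors' deposited table its adjusted p was 0.14. The 1 member called higher, Snord72, had 16.5 and 11.5 normalised reads against 5.10 and 5.45 (limma, adjusted p = 0.05, just under the threshold). Both scrambled values were under 10, so Snord72 entered the test only through the knockdown libraries, where it was high. It was not called higher under most other settings.

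Of 29 box H/ACA snoRNAs 22 fell, where 19.4% of all genes did, and the log2 fold changes of all 29 were negative. Snora7a had 465 and 307 against 922 and 701 (log2 fold change -1.09 ± 0.10, limma adjusted p = 3.6e-12). Snora44 had 402 and 219 against 1019 and 582 (-1.37 ± 0.14, limma adjusted p = 7e-11), and 0.068 as its adjusted p in the authors' deposited table. Snora74a, Snora70 and Snora81 fell by 0.82, 1.20 and 1.09 on the log2 scale.

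All 6 scaRNAs tested fell: Scarna9 by 0.35, Scarna2 by 0.37, Scarna10 by 0.39, Scarna6 by 0.46, Scarna13 by 0.50 and Scarna17 by 0.62 on the log2 scale. Scarna13 had 856 and 818 normalised reads against 1148 and 1222 (limma, adjusted p = 1.3e-09), with no overlap. These falls were smaller than those of most snoRNAs, with a class median of -0.42 against -0.74 for each guide class; the difference between classes was not tested.

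Rmrp, Rpph1 and Rn45s fell too. Rmrp had 96978 and 73593 against 141535 and 126694 (log2 fold change -0.66 ± 0.09, limma adjusted p = 3.2e-08). Rpph1 had 163132 and 136290 against 201719 and 194373 (-0.41 ± 0.10, limma adjusted p = 0.00047), and Rn45s 579503 and 521329 against 841787 and 738406 (-0.52 ± 0.16, limma adjusted p = 0.0057). The knockdown libraries lay below both controls in each. Rpph1 was not called without shHdac3 replicate 2 (adjusted p = 0.19), and Rn45s not without scrambled replicate 1 or either knockdown library (adjusted p = 0.14 to 0.32).

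Rn45s is what ribosomal depletion leaves of the precursor and of any mature ribosomal RNA assigned to it, which could not be separated here. Rmrp and Rpph1 each share annotated sequence with a neighbour: 44.1% of Rmrp overlaps an exon of Ccdc107 on the other strand, and 73.0% of Rpph1 an exon of Ccnb1ip1 on the same strand.

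Called without each library in turn were 40 of the 61 falls, with Rmrp, 5 scaRNAs and the snoRNAs printed above among them. Without scrambled replicate 1, which was above replicate 2 in 72 of 87 RNAs, 42 were lower.

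**Figure D3:**
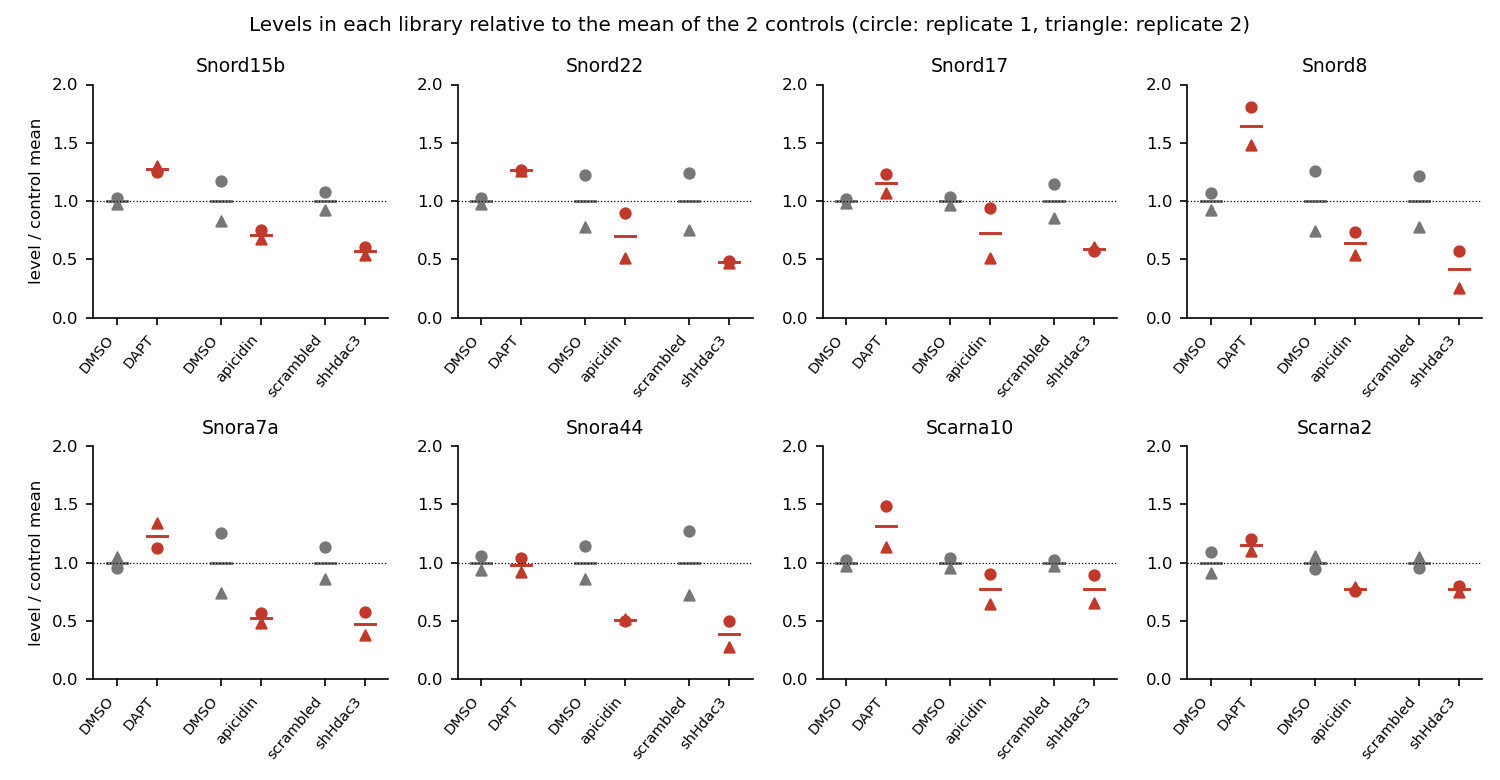
Normalised reads of 8 structural RNAs in each library divided by the mean of the 2 controls of its experiment (vertical axes, from 0; the dotted line is 1), for the 3 experiments on the horizontal axis; circles are replicate 1, triangles replicate 2, red treated, grey controls, bars the mean. Snord15b, Snord22, Snord17, Snord8, Snora7a, Scarna10 and Scarna2 lay above the controls with DAPT, Snora44 did not, and all 8 lay below them with shHdac3.

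The 3 responses were then set side by side. Of the 43 RNAs lower with apicidin, 40 were also lower with shHdac3, which was 93.0% of the first list and 65.6% of the second, among 85 tested in both. Of those 85, 61 were lower with shHdac3. In the limma fit of each experiment, all 16 RNAs higher with DAPT were lower with shHdac3, and 13 of the 16 were lower with apicidin. Those 13 were Snord15a, Snord15b, Snord16a, Snord17, Snord22, Snord8, Snora7a, Snora21, Snora52, Snora68, Scarna2, Scarna6 and Scarna10. Whatever their DAPT call, 61 of 87 structural RNAs tested in both were lower with shHdac3, and 43 of 85 with apicidin. At a mean of 500 or more, 11 of 20 rose with DAPT and 20 of 20 fell with shHdac3. The overlap of calls over all genes was not counted. The opposite calls were fewer by the authors' deposited adjusted p. Of the 13, it called 6 higher with DAPT and 1, Scarna2, lower with apicidin, and 0 in both directions. Of the 16, it called 7 higher with DAPT and 12 lower with shHdac3, and 6 in both directions: Snora7a, Snord15a, Snord15b, Snord17, Snord22 and Snord47. In the limma fits without each library in turn, both calls held every time for 1 of the 13, Snord15b, and for 8 of the 16.

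The differences between responses were tested in 1 limma fit over the 12 libraries. The DAPT response was above the apicidin response in 37 of 96 structural RNAs and below it in 3, where 16.0% and 18.8% of all genes were called. It was above the shHdac3 response in 51 and below it in 4, where 20.0% and 23.8% of all genes were called. The apicidin and shHdac3 responses differed in 9 of 96, 8 of them with the higher value under apicidin (15.1% of all genes higher and 18.3% lower). For Snord8 the DAPT response exceeded that to apicidin by a log2 of 1.32 and that to shHdac3 by 2.04. For Rmrp the 2 differences were 0.62 ± 0.16 and 0.76 ± 0.16 (limma, adjusted p = 0.0031 and 0.00033). For Rn45s they were 0.05 ± 0.22 and 0.12 ± 0.22 (limma, adjusted p = 0.90 and 0.69), with SEs too wide to show small differences.

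How far the replicates agreed limited these results. The median gap between the 2 libraries of a group was a log2 of 0.16 to 0.50 for the structural RNAs and 0.06 to 0.08 for all genes. The widest was in the DMSO controls of apicidin (0.50), and the narrowest in the DMSO controls of DAPT (0.16). In the apicidin controls, 53 of 86 RNAs (61.6%) differed between the 2 libraries by more than counting noise at 95%, against 16.8% of all genes. In the DAPT controls 14 of 95 (14.7%) did, against 21.0% of all genes. In every other group the share was above that of all genes: 30.5% against 13.7% with DAPT and 29.1% against 13.3% with apicidin. It was 44.8% against 15.4% with the scrambled hairpin and 29.9% against 16.3% with shHdac3.

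**Figure D4:**
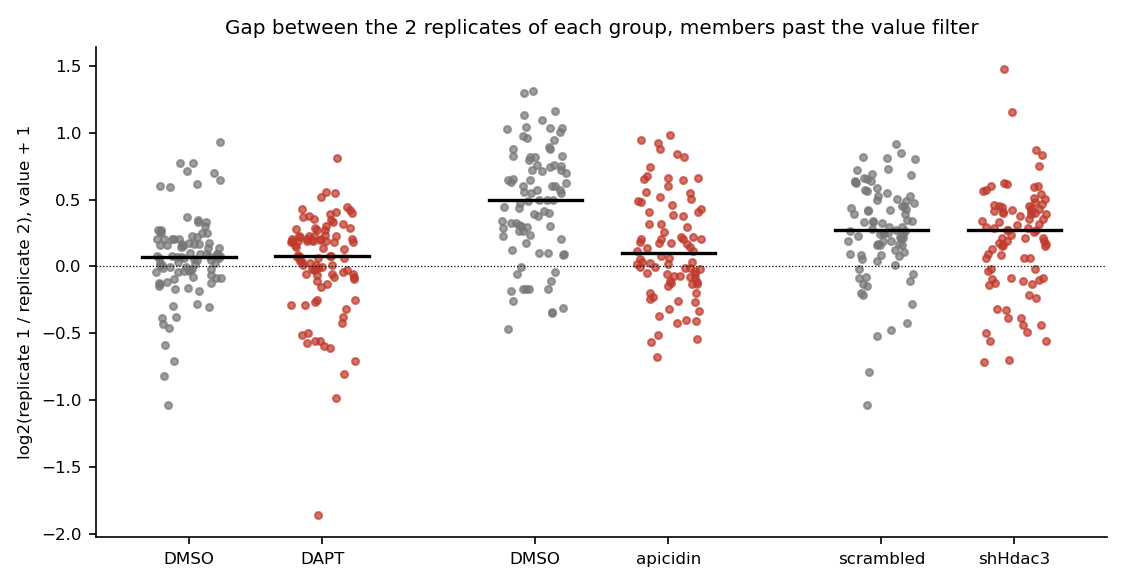
Log2 of replicate 1 over replicate 2 (vertical axis; value + 1) for each structural RNA past the value filter in the 6 groups on the horizontal axis; grey points are controls, red points treated, and black lines medians. The DMSO controls of apicidin lie furthest from 0, with a median of 0.50, and the scrambled and shHdac3 groups at 0.27 each.

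The share of RNAs higher in replicate 1 varied between groups. Replicate 1 was the higher library for 72 of 87 RNAs with the scrambled hairpin and 62 of 87 with shHdac3, while 48.8% and 56.6% of all genes were. It was the higher one for 51 of 86 with apicidin, 59 of 95 with DAPT and 61 of 95 in the DMSO controls of DAPT. These gaps were not matched for level. The authors' test, which gave 7 and 0 (DAPT), 0 and 12 (apicidin) and 0 and 41 (shHdac3) RNAs higher and lower, made fewer calls.

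Precision also followed the level. With DAPT the median SE of the log2 fold change was 0.32 for 31 RNAs with a mean under 50, 0.15 for 44 between 50 and 500, and 0.06 for 20 of 500 or more. With apicidin it was 0.32, 0.19 and 0.12, and with shHdac3 0.35, 0.17 and 0.09. For all genes of 500 or more the median SE was 0.05 in each experiment, and between 50 and 500 it was 0.11 to 0.12. Under 50 it was 0.34 with DAPT, 0.32 with apicidin and 0.35 with shHdac3, close to that of the structural RNAs. At a mean under 50, 4 of 27 were lower with apicidin and 11 of 29 with shHdac3, where 7.63% and 15.6% of all genes at that level were.

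RNAs near the value filter show what low counts allow. Snord4a had 14.4 and 19.8 normalised reads with shHdac3 and 6.12 and 13.6 with the scrambled hairpin, a log2 fold change of 0.81 ± 0.45 (limma, adjusted p = 0.15). Snora19 had 6.41 and 25.9 with DAPT, the widest gap in that experiment. Just inside the filter lay Scarna8 with DAPT (second highest value 10.3), and just outside it Snord111 (9.25).

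Most snoRNAs and scaRNAs could be compared with the gene they lie in. With DAPT, 78 of them paired with 60 host genes on the same strand. Of these hosts 44 were lower and 2 higher, where 23.1% of all genes were lower and 20.1% higher, and 31.8% of those with a mean of 500 or more were lower. In this experiment 10 structural RNAs were higher while their host was lower. Snord22 rose by 0.34 and its host Snhg1, a noncoding gene, had a log2 fold change of -0.27 (limma, adjusted p = 1.9e-05). Snord47 rose by 0.34 while Gas5 changed by -0.35, and Snord17 by 0.20 while Snx5 changed by -0.49.

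With shHdac3 70 pairs had 54 hosts, 16 of them higher and 18 lower (22.5% and 19.4% of all genes). In 14 pairs the structural RNA fell while the host rose, in 12 both fell, and in 19 the host did not pass. The structural RNA had the lower log2 fold change in 58 of 70 pairs. Snord110 and Snord57 lie in Nop56, a core protein of box C/D particles; they fell by 1.16 and 0.84 while Nop56 rose by 0.36. Snord11 fell by 1.06 while its host Nop58, the partner of Nop56, rose by 0.33. Snord82 fell by 1.08 while Ncl (nucleolin) rose by 0.29, and Snord8 by 1.34 while Chd8 rose by 0.17.

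Several box H/ACA RNAs in Snhg12 fell together. Snora44, Snora61 and Snora16a fell by 1.37, 0.84 and 1.18 with shHdac3, while Snhg12 had a log2 fold change of -0.14 (limma, adjusted p = 0.11). With apicidin 69 pairs had 52 hosts, 4 higher and 26 lower (18.2% and 19.9% of all genes), and the structural RNA had the lower value in 52 of 69. There 15 structural RNAs fell with their host, 15 while the host did not pass and 2 while it rose, Scarna10 in Ncapd2 (0.20) and Snord8 in Chd8 (0.16). Many of these RNAs overlap an annotated exon of the host, so host and snoRNA counts may share reads.

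**Figure D5:**
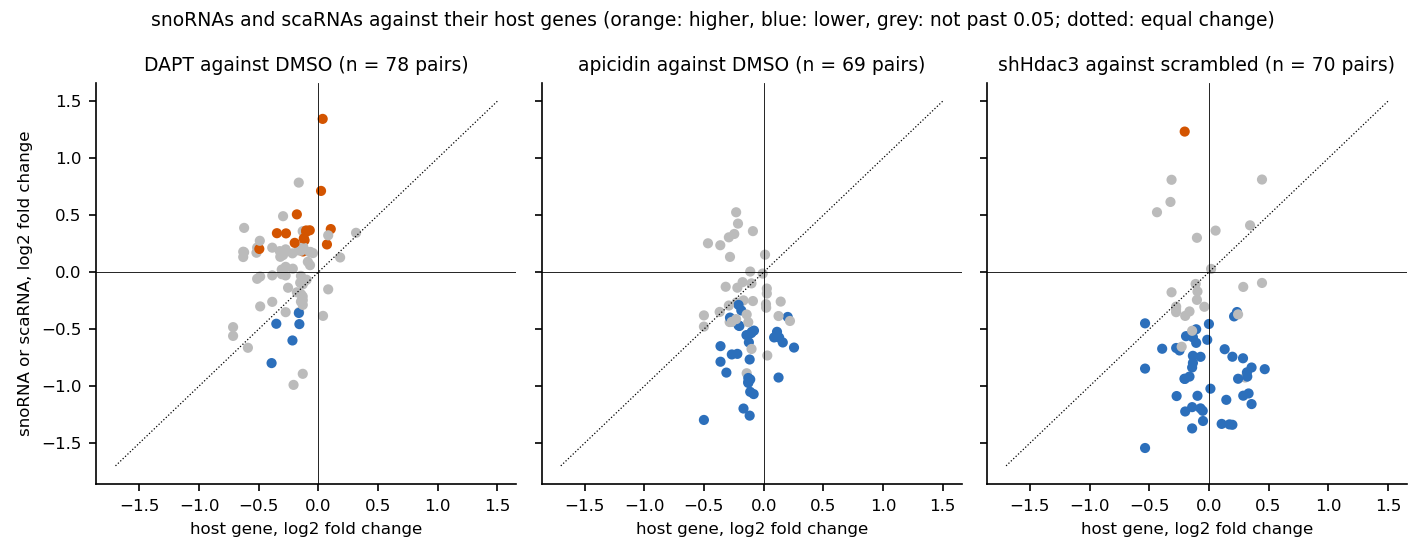
Log2 fold change of each snoRNA or scaRNA (vertical axis) against that of its host gene (horizontal axis) in the 3 comparisons; orange and blue points passed an adjusted p of 0.05, grey did not, and the dotted line marks equal change. With shHdac3 58 of 70 points lie below the line, and with DAPT 18 of 78.

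The proteins that bind, assemble and use these RNAs were looked up as 7 gene lists. With DAPT all 4 core box C/D proteins (Fbl, Nop56, Nop58, Nhp2l1) and all 4 core box H/ACA proteins (Dkc1, Nhp2, Nop10, Gar1) fell, with median log2 fold changes of -0.56 each. Fbl, the methyltransferase, changed by -0.50 and Dkc1, the pseudouridine synthase, by -0.67. Of 11 assembly factors 9 fell, of 7 Cajal body genes 5, of 9 RNase P and MRP proteins 7, of 15 RNA polymerase I genes 11 and of 20 pre-rRNA processing genes 18. Together 58 of the 70 genes on the lists were lower and 0 higher (at a limma adjusted p under 0.05), where 23.1% of all genes, and 31.8% of those with a mean of 500 or more, were lower and 20.1% of all genes higher. The median of all genes was 0.00.

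With shHdac3, 44 of these 70 genes rose and 3 fell, where 22.5% of all genes were higher and 19.4% lower, and 35.6% of those with a mean of 500 or more were higher. Of the box C/D proteins 3 of 4 rose, and of the box H/ACA proteins 2 of 4. Of 11 assembly factors 7 rose, of 7 Cajal body genes 4, of 9 RNase P and MRP proteins 4 (1 fell), of 15 polymerase I genes 7 (1 fell) and of 20 processing genes 17 (1 fell). Dkc1 rose by 0.41 on the log2 scale, Pop1, the largest protein of RNase P and MRP, by 0.74, and Utp20 by 0.55. Rpp21 and Imp3 were among those that fell, at -0.26 and -0.16.

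With apicidin 18 of the 70 (25.7%) were lower and 5 higher, where 19.9% of all genes were lower and 18.2% higher. Of all genes with a mean of 500 or more, 25.03% were lower and 23.01% higher. The share of the lists that was lower was thus near that of genes at this level, and the falls named next do not set the lists apart. Of the box C/D proteins 1 fell, Nop56 at -0.12, and of the box H/ACA proteins 2, Dkc1 at -0.28 and Nhp2 at -0.32. Ubtf, a polymerase I activator, changed by -0.35 and Rpp40 by 0.48. Of 20 processing genes 7 fell and 1 rose.

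Short noncoding genes outside the structural RNA set (microRNA genes, Rnu, Rprl, Terc and Vaultrc5) were counted beside them, and their part in the result was not tested. Of those with values of 10 or more, 9 of 45 were higher and 1 lower with DAPT, 2 of 31 higher and 8 lower with apicidin, and 2 of 36 higher and 14 lower with shHdac3. Of all genes tested, 20.1% were higher and 23.1% lower with DAPT, 18.2% and 19.9% with apicidin, and 22.5% and 19.4% with shHdac3, so that the 9 of 45 higher with DAPT were near the share of all genes. Rprl3, a relative of the RNase P RNA, had 21222 and 17442 normalised reads with shHdac3 against 29211 and 28151 (log2 fold change -0.58), and Terc, the telomerase RNA, 512 and 460.1 against 692 and 744 (-0.56). Rnu11 and Rnu12, small RNAs of the minor spliceosome, had log2 fold changes of 0.47 and 0.50 with DAPT and of -1.02 and -1.06 with shHdac3.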

How the data were processed

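Beko pre-T cells were sequenced as ribosomal RNA-depleted total RNA in 12 libraries (6 groups of 2), with a stranded kit, per the labels. FastQC, Bowtie2, TopHat, DESeq2 and the build mm9 are named in the submitters' processing notes; the sources used here do not name the counting tool, annotation or strand setting. The deposited signal is normalised reads, each value a whole number of reads (100% within 1e-06) divided by 1 size factor per library; each experiment was normalised separately by the authors. The authors' deposited log2 fold changes, p-values and adjusted p-values come from their own comparison tables, per the file headers. Those tables also hold a score that the authors computed, the fold change over its error, per the file headers, which was not used.

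Testing was limited to genes at 10 or above in at least 2 of 4 libraries. The test was limma 3.58.1 (R 4.3.3; spread modelled by level) on log2(value + 1), with Benjamini-Hochberg adjustment over all genes tested. A fold change on this scale understates that of low genes. Differences between responses used 1 limma fit over 12 libraries with median-ratio factors. Alternatives were edgeR 4.0.16 and DESeq2 1.42.0 on recovered reads, other factors, pseudocounts and filters, a replicate block, and each library left out. The scripts were tested on simulated data. The file columns all mapped to samples. Hosts and sequences come from GENCODE (GRCm38), by symbol (115 of 117 matched, not Rn45s and Snord116); the files' build differs, so no coordinates are given. A level per 100 bases uses the GENCODE transcript length.

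The members and gene lists were chosen with earlier results of these data known. Members named by rule were Rn45s, Rpph1, Rmrp and scaRNAs past the filter; the 5 most abundant snoRNAs per length; up to 6 largest rises and falls; members called in 2 or 3 comparisons; the 4 widest replicate gaps; and members beside the filter.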

Additional observations from a re-analysis of the deposited data

Results flagged for a closer look

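The 38 results here are structural RNAs whose log2 response differed between experiments in the limma fit over 12 libraries, at an adjusted p under 0.05. In the first 2 sets each RNA was also called in opposite directions by the limma fits of the 2 experiments. The authors' deposited adjusted p called 0 of the 13 in the first set and 6 of the 16 in the second in both directions. Response to DAPT minus response to apicidin was, on the log2 scale, 0.57 for Scarna2, 0.64 for Snord15a, 0.72 for Snord17, 0.76 for Scarna10, 0.78 for Snora52 and Snord16a, 0.81 for Scarna6 and Snord15b, 0.85 for Snord22, 0.89 for Snora68, 0.91 for Snora21, 1.17 for Snora7a and 1.32 for Snord8. Response to DAPT minus response to shHdac3 was 0.57 for Scarna2, 0.69 for Scarna6, 0.76 for Scarna10, 0.85 for Snora68, 0.89 for Snora52, 0.93 for Snord15a, 0.95 for Snord17, 1.05 for Snora21, 1.14 for Snord15b and 1.27 for Snord47. In the same set it was 1.36 for Snord22, 1.38 for Snora7a, 1.56 for Snord16a, 1.59 for Snora81, 2.04 for Snord8 and 2.65 for Snord67, the last from values under 25 in each of these 8 libraries. In the DAPT experiment Snord67 passed the filter only through the treated libraries.

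The response to apicidin exceeded that to shHdac3 by 0.64 for Snord12, 0.73 for Snora70, 0.78 for Snord16a, 0.88 for Snord43, 0.90 for Snora81, 0.97 for Scarna17, 1.08 for Snord35b and 1.20 for Snord47. Snord53 went the other way, with a difference of -1.36 from values under 45 in each of these 8 libraries.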

How the results depend on the processing

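No named call changed direction under the alternatives run. Higher calls with DAPT were 16, and 7 with DESeq2 or the authors' adjusted p, an alternative added after seeing the data; lower calls were 6, 3 with no filter and 0 with either of those 2 (DESeq2, 1 at an unadjusted p under 0.05 in the authors' table). Lower calls with apicidin were 43, and 12 with DESeq2 or the authors' adjusted p. The single higher call with shHdac3 was 2 with edgeR and 0 with DESeq2, the authors' adjusted p, upper-quartile factors, factors without structural RNA and histone genes, a pseudocount of 0.5 or 5, no filter or a filter of 50. The cause of these changes was not tested. For the left-out libraries and the replicate block below, the share of all genes called was not counted. Leaving out each library gave 13 to 23 higher and 3 to 5 lower with DAPT, 0 to 2 higher and 29 to 54 lower with apicidin, and 0 to 1 higher and 42 to 58 lower with shHdac3. For the differences between responses it gave 19 to 46 higher and 1 to 3 lower (DAPT minus apicidin), 40 to 54 and 0 to 4 (DAPT minus shHdac3), and 3 to 23 and 0 to 1 (apicidin minus shHdac3); the fewest for DAPT minus apicidin and the most for apicidin minus shHdac3 came without apicidin's DMSO replicate 1.

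Replicates share only a number, with a correlation of same-numbered deviations of 0.02, 0.04 and 0.01 over all genes and 0.06, 0.06 and 0.19 over the structural RNAs. A replicate block gave 22 higher and 8 lower with DAPT, 48 lower with apicidin and 61 lower with shHdac3, and 15 in place of 8 for apicidin minus shHdac3; with it Rmrp was called higher with DAPT (limma, adjusted p = 0.0049) and Rpph1 lower with apicidin (0.037). Upper-quartile factors raised the share of higher calls among all genes from 46.6% to 56.5% with DAPT and lowered it from 53.8% to 43.5% with shHdac3, while the structural RNAs higher with DAPT went from 16 to 22. At means under 50 the median SE was 0.32 to 0.35, which limits what low RNAs can show.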

Other observations

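Over the 12 libraries the genes whose level followed Rn45s most closely were Usb1, which trims U6 RNA (Pearson r = 0.96), Galnt11 (r = 0.94) and Zdhhc1 (r = 0.93), among 13041 genes; this is a description, over libraries from 3 separately prepared experiments. Rmrp and Rpph1 had r = 0.13 and 0.54 with Rn45s.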
